A study of Mus musculus with 8 samples.

Results

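The insulin-like growth factor (IGF) axis was examined in primary mouse astrocytes through 10 genes: Igf2, Igf1r, Igfbp2, Igfbp3, Igfbp4, Igfbp5, Igfbp6, Igfbp7 and the pappalysin genes Pappa and Pappa2. The genes were taken by name and not by a cut on their values, though with earlier results of these data known. All 10 were present among the 13937 genes of the count table, and all 10 were among the 13509 genes that passed the filter on low counts.

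Bulk RNA was sequenced from astrocytes of C57BL/6 pups aged 1 day, which were either WT or lacked RGC-32 (RGC-32 KO), a cell cycle regulator encoded by Rgcc. The cultures were left unstimulated or received the cytokine TGF-β at 10 ng/ml for 24 h after overnight serum starvation. Unstimulated and TGF-β-stimulated cultures of each genotype gave 4 groups (WT control, WT TGF-β and, likewise named, those of RGC-32 KO), which held 2 biological replicates each, and the question was which TGF-β responses depend on RGC-32. The knockout was not limited to astrocytes by any promoter or Cre that the sources describe, and how many pups made up a culture is not given in the sources used here.

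Libraries held 14920561 to 18956038 counts on genes. Rgcc, the targeted gene, had 80 and 94 counts in unstimulated and 215 and 362 counts in stimulated WT libraries, against 61 and 28 counts in unstimulated and 64 and 26 counts in stimulated knockout libraries. Every knockout library was below every WT library, and none was at 0. All 10 listed astrocyte markers, including Gfap and Aqp4, were present, with a summed level of 4396 to 4632 CPM in WT control and 5071 to 5781 CPM in RGC-32 KO control. CPM stands for the counts of a gene relative to library size, after TMM scaling. The astrocyte sum was 3440 to 3565 CPM in WT TGF-β and 4263 to 4555 CPM in RGC-32 KO TGF-β.

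IGF1 and IGF2 are secreted growth factors that signal through the tyrosine kinase receptor IGF1R. In the extracellular space most IGF is held by IGF-binding proteins (IGFBPs), which limit its access to the receptor, and pappalysins are metalloproteases that cut particular IGFBPs and so release IGF. PAPP-A is best known for cleaving IGFBP4, and PAPP-A2 for cleaving IGFBP3 and IGFBP5, while the stanniocalcins inhibit both enzymes. In the brain the axis is known for its part in growth, myelination and the response to injury, and astrocytes are a source of IGFBP2.

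The members lie on 6 chromosomes, and their start regions differ in the letters they hold. Positions are from GENCODE M21 (GRCm38, the assembly also called mm10). Igfbp2 (chr1:72824503-72852474, plus strand) and Igfbp5 (chr1:72857932-72874884, minus strand) are neighbours that point towards each other, with 5457 bases between their ends. Pappa2 (chr1:158711727-158980490, minus strand) is on the same chromosome. Igf1r (chr7:67952827-68233668, plus) and Igf2 (chr7:142650766-142666816, minus) share chromosome 7, and Igfbp3 (chr11:7206086-7213923, minus) and Igfbp4 (chr11:99041244-99054392, plus) share chromosome 11. Igfbp7 is at chr5:77349240-77408041 (minus), Pappa at chr4:65124174-65357509 (plus) and Igfbp6 at chr15:102144362-102149511 (plus). The libraries were not stranded, so reads in the overlaps of Igf2 with its antisense gene Igf2os and of Igfbp7 with Polr2b could not be assigned by strand.

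The core promoter windows of the 6 members that passed the test in WT are shown because these are the members that changed with TGF-β. Each runs from 40 to 11 bases before a RefSeq transcript start (GRCm38.p6), 5′ to 3′ on the strand of the gene, in lower case with the TATA-box letters TATAAA in capitals. For Igfbp2, which has 2 such starts, the upstream one is shown. The Pappa2 start (chr1:158958175) lies inside the GENCODE gene, whose 5′ end is at 158980490.
Igfbp4 (chr11:99041204-99041233, plus): ccagggggccggTATAAAgtcccgggagcc
Igfbp3 (chr11:7213934-7213963, minus): ccccggcttctatatatcggcctgcgcgcc
Igfbp2 (chr1:72824440-72824469, plus): ggggggcggggagaagcaggctttttagga
Igfbp5 (chr1:72874876-72874905, minus): gcctgctcgaccagagcccgcagtctcttt
Igfbp7 (chr5:77408056-77408085, minus): ggggcagcggctttaagggttggcctccgg
Pappa2 (chr1:158958186-158958215, minus): ccccgagtgccacgctgcaggagtgctcac
RefSeq starts were matched for 9 of the 10 members, all but Pappa, with 13 starts in all. TATAAA, searched on both strands, was found at the start of 1 of these genes, Igfbp4, on the strand of the gene. The same letters were on the gene strand in the same window of 2.08% of 32851 mouse promoters, and on either strand in 2.66%. The match is a description of the letters, and the other windows say only that TATAAA is not in them.

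Levels can be compared between genes only per length, for which the deposited FPKM values were used (a level divided by transcript length as well as by library size). In WT control the mean levels were 2031 FPKM for Igfbp2, 548 for Igfbp5, 475 for Igfbp7, 308 for Igf2, 89.5 for Igfbp3, 69.0 for Igfbp4, 33.6 for Igfbp6, 8.53 for Igf1r, 4.11 for Pappa and 1.17 for Pappa2. The binding proteins and the ligand thus stood above the receptor and the proteases. This order was the same in all 4 groups. Neighbours in the order did not overlap between libraries, except Igfbp5 and Igfbp7, which overlapped in both knockout groups (Igfbp5 at 417 and 627 FPKM and Igfbp7 at 538 and 425 FPKM in RGC-32 KO control).

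**Figure D1:**
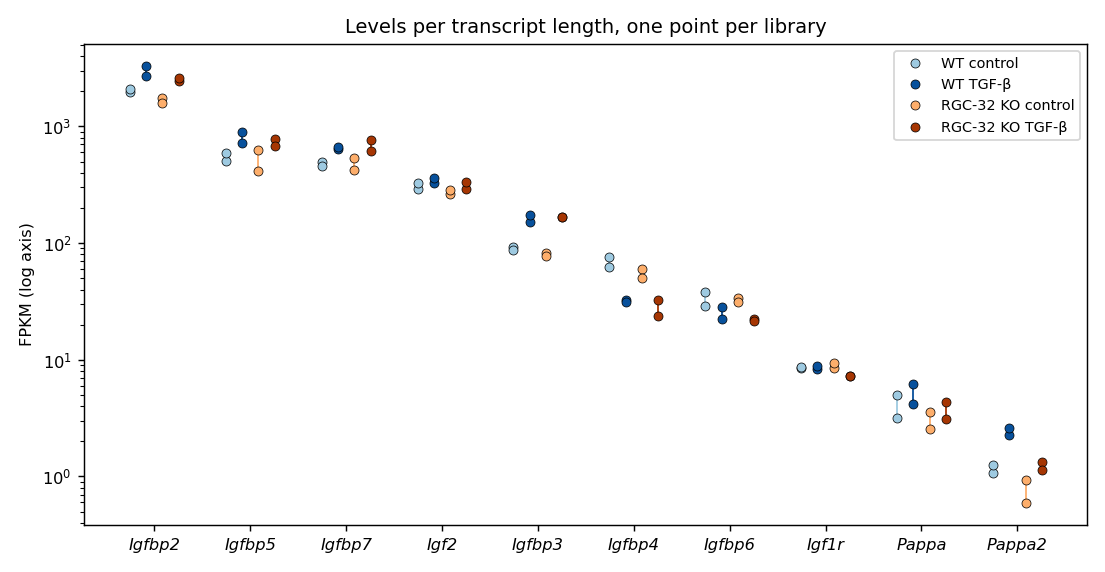
Level of each member in FPKM on a log axis, with 1 point per library, 2 libraries per group joined by a line, and genes ordered by their mean in WT control. Igfbp2 is highest and Pappa2 lowest in every group, and the points of Igfbp5 and Igfbp7 overlap in both RGC-32 KO groups.

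Igfbp2 alone made up 56.5% to 67.0% of the summed FPKM of Igfbp2 to Igfbp7. The share of Igfbp4 was 1.81% to 2.25% in the 4 control libraries and 0.577% to 0.759% in the 4 TGF-β libraries. The summed FPKM of these 6 binding proteins per summed FPKM of Igf1 and Igf2 was 9.31 to 10.4 in the control libraries and 10.9 to 12.6 in the TGF-β libraries. The ratio of Igf2 to Igf1 was 19.8 to 23.3 in the control libraries and 6.56 to 8 in the TGF-β libraries. These shares and ratios are given as values per library and were not tested.

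In WT astrocytes TGF-β raised 5 of the 10 members (Igfbp2, Igfbp3, Igfbp5, Igfbp7 and Pappa2) and lowered 1 (Igfbp4). To pass, a gene needed a log2 fold change of 0.6 or more in size, together with an adjusted p under 0.05. Of the 13509 genes tested, 13.4% passed in this comparison, 7.72% upwards and 5.65% downwards. In RGC-32 KO astrocytes TGF-β raised 3 members (Igfbp2, Igfbp3 and Igfbp7) and lowered 1 (Igfbp4), where 11.5% of genes passed, 6.61% upwards and 4.93% downwards. The median log2 fold change of the members was 0.55 in WT and 0.50 in the knockout, and that of all genes tested was -0.0048 and 0.0031. Without overlap between control and TGF-β libraries, 6 members were higher and 1 lower in WT (35.4% and 33.7% of all genes), and 6 higher and 3 lower in RGC-32 KO (34.3% and 32.9% of all genes).

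**Figure D2:**
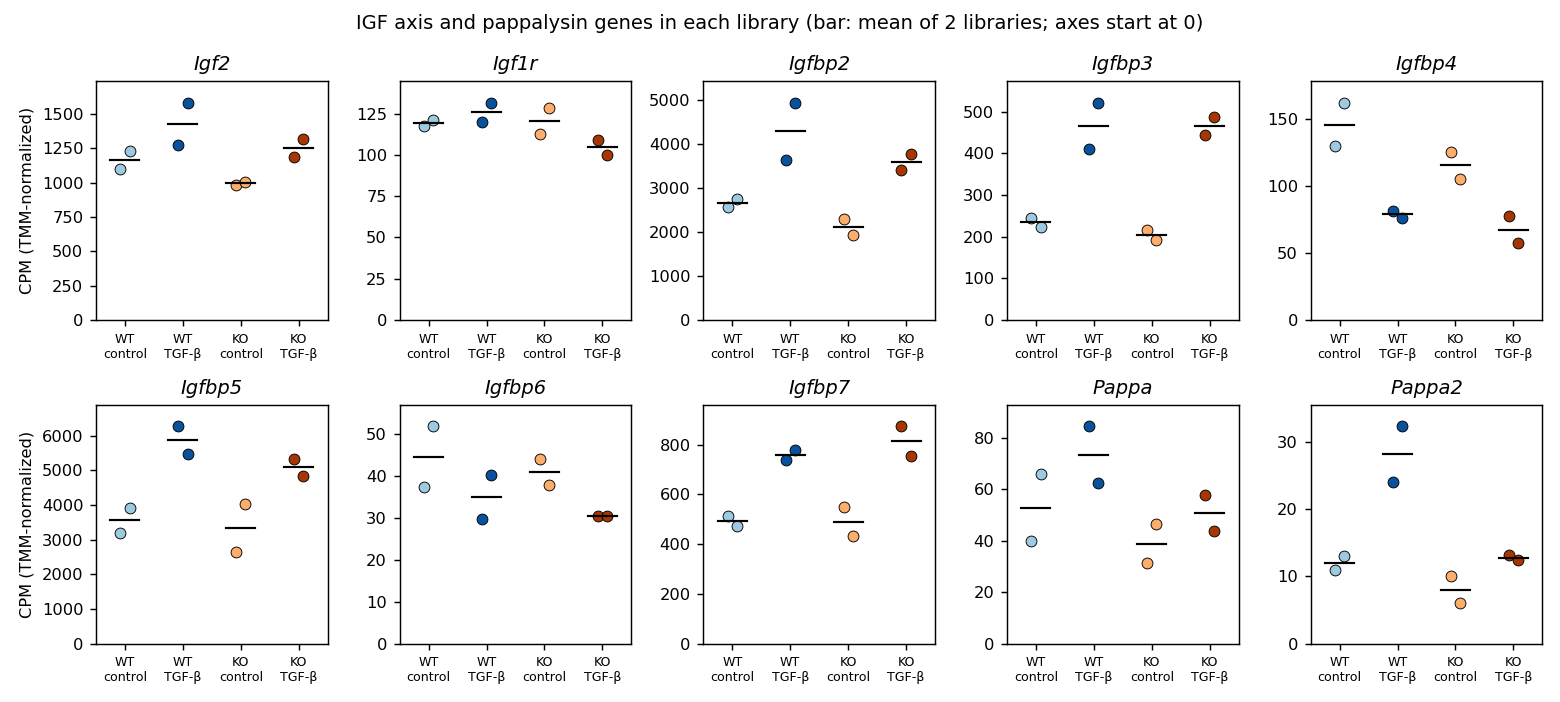
TMM-normalized CPM of the 10 members, with 1 point per library and a bar at the mean of the 2 libraries of each group, on linear axes that start at 0. Igfbp2, Igfbp3, Igfbp5, Igfbp7 and Pappa2 lie higher and Igfbp4 lower with TGF-β in both genotypes, without overlap, while Pappa overlaps between control and TGF-β.

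Genes listed as markers of other cells moved in some of the same comparisons. The summed level of 10 meningeal fibroblast markers, none at 0, was 3924 to 4681 CPM in unstimulated and 7828 to 9023 CPM in stimulated WT cultures, and 3053 to 3260 CPM in unstimulated and 5852 to 6019 CPM in stimulated knockout cultures, although the study's methods state that meninges were removed. Within this list 5 genes rose and 2 fell in WT, and 5 rose and 0 fell in RGC-32 KO. Col1a1 (1.31 log2) and Col1a2 (1.08 log2), collagen genes, were among the WT rises, while Dcn (-0.62 log2) and Ogn (-0.85 log2), proteoglycan genes, were the falls. The sum was carried by Col1a1 (1696 and 4217 CPM on average in WT control and WT TGF-β) and Col1a2 (1561 and 3301 CPM). In RGC-32 KO these averages were 1257 and 2893 CPM for Col1a1 and 1033 and 2209 CPM for Col1a2. The fitted log2 fold change was positive for 5 markers of the list and negative for 5 in each genotype. Between genotypes the median log2 difference of the list was -0.23 without and -0.28 with TGF-β. In bulk RNA, fewer cells of a type and less RNA per cell cannot be told apart. Nor can it be told whether astrocytes or other cells made these transcripts. The part of meningeal fibroblasts in the values of the members was not tested.

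Igf2, the fetal growth factor and the only ligand among the members, had 1097 and 1233 CPM in unstimulated and 1276 and 1581 CPM in stimulated WT libraries, against 983 and 1005 CPM in unstimulated and 1187 and 1315 CPM in stimulated knockout libraries. Within each genotype the TGF-β libraries were above the controls. The log2 fold change was 0.29 (SE 0.12) in WT and 0.33 (SE 0.12) in the knockout, with adjusted p-values of 0.0871 and 0.0665 by edgeR's quasi-likelihood test, so Igf2 did not pass in either genotype. Its WT difference became 0.45 log2 when the first stimulated WT library was left out and 0.12 when the second was, and passed in neither case.

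Igf1r, the receptor for both ligands, had 117 and 121 CPM in unstimulated and 119.9 and 132 CPM in stimulated WT libraries, against 113 and 128 CPM in unstimulated and 109 and 99.9 CPM in stimulated knockout libraries. The WT groups overlapped, and in RGC-32 KO both TGF-β libraries were below both controls. The log2 fold change was 0.07 (SE 0.08, adjusted p = 0.514) in WT, where its sign was not stable and was -0.01 under upper quartile normalization. In RGC-32 KO it was -0.20 (SE 0.08, adjusted p = 0.0997). The difference between these responses was -0.28 (95% interval -0.55 to -0.01), with an unadjusted p of 0.0426 in the edgeR interaction test and an adjusted p of 1.

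Among the binding proteins, Igfbp3 had the largest rise. Igfbp3 encodes the main IGF carrier of the circulation and is a known TGF-β target in many cell types. It had 245 and 224 CPM in unstimulated and 412 and 522 CPM in stimulated WT libraries, against 217 and 192 CPM in unstimulated and 445 and 488 CPM in stimulated knockout libraries. The TGF-β libraries of both genotypes were above all 4 controls. Igfbp3 rose by 0.99 log2 (SE 0.12, adjusted p = 0.00101, edgeR) in WT, which is 1.99-fold, and by 1.19 log2 (SE 0.12, adjusted p = 0.000603) in RGC-32 KO, which is 2.29-fold.

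Igfbp2, the most abundant member per length and the binding protein typical of the developing brain, had 2576 and 2754 CPM in WT control and 3633 and 4936 in WT TGF-β. Knockout libraries had 2286 and 1923 CPM unstimulated and 3400 and 3763 CPM with TGF-β, so that here too all 4 TGF-β libraries were above all 4 controls. Igfbp2 rose by 0.69 log2 (SE 0.16, adjusted p = 0.0129, edgeR) in WT and by 0.77 log2 (SE 0.16, adjusted p = 0.00965) in the knockout. The WT call was lost without WT TGF-β replicate 2 (0.43 log2, adjusted p = 0.0822) and without WT control replicate 1 (0.64 log2, adjusted p = 0.0582). The RGC-32 KO call was lost without RGC-32 KO control replicate 2 (adjusted p = 0.0662) or RGC-32 KO TGF-β replicate 2 (adjusted p = 0.0693).

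Igfbp5, its neighbour on chromosome 1 and a binding protein that attaches to extracellular matrix, had 3208 and 3917 CPM in WT control and 6271 and 5476 in WT TGF-β. The knockout libraries had 2634 and 4019 CPM without and 5333 and 4850 with TGF-β. The groups did not overlap in either genotype, although the 2 RGC-32 KO controls lay 52.6% apart. Igfbp5 rose by 0.72 log2 (SE 0.20, adjusted p = 0.0266, edgeR) in WT. In RGC-32 KO the log2 fold change was 0.61 (SE 0.20) with an adjusted p of 0.0516, just short of the threshold, which it passed with limma-voom (0.65 log2, adjusted p = 0.0411) and with no filter on low counts (adjusted p = 0.0499). The difference between the responses was -0.11 (95% interval -0.75 to 0.54), so no difference between the genotypes was shown. Single libraries decided these calls. The WT call was lost without WT control replicate 1 (adjusted p = 0.121), WT TGF-β replicate 1 (adjusted p = 0.106) or WT TGF-β replicate 2 (adjusted p = 0.0655), and in RGC-32 KO the log2 fold change was 0.95 (adjusted p = 0.0157) without control replicate 2 and 0.32 without control replicate 1.

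Igfbp7, a matrix-associated protein that binds IGFs only weakly, had 512 and 472 CPM in unstimulated and 739 and 780 CPM in stimulated WT libraries, against 548 and 433 CPM in unstimulated and 873 and 752 CPM in stimulated knockout libraries. Control and TGF-β libraries did not overlap. It rose by 0.63 log2 (SE 0.12, adjusted p = 0.00688, edgeR) in WT and by 0.73 log2 (SE 0.12, adjusted p = 0.00454) in the knockout. The WT rise was close to the fold limit and was under it without WT control replicate 2 (0.55 log2) or WT TGF-β replicate 2 (0.57 log2), as was the RGC-32 KO rise without control replicate 2 (0.57 log2).

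Igfbp4, the substrate most closely tied to PAPP-A, was the only member to fall past the threshold. It had 129.7 and 162 CPM in unstimulated and 81.7 and 76.3 CPM in stimulated WT libraries, against 126 and 105 CPM in unstimulated and 77.8 and 57.2 CPM in stimulated knockout libraries. All 4 TGF-β libraries were below all 4 controls. The log2 fold change was -0.89 (SE 0.16, adjusted p = 0.00506, edgeR) in WT and -0.78 (SE 0.16, adjusted p = 0.0108) in the knockout, a level 1.85-fold and 1.71-fold lower. The RGC-32 KO call was lost without control replicate 1 (adjusted p = 0.053) or TGF-β replicate 2 (-0.59 log2, adjusted p = 0.0521).

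Igfbp6, a binding protein with a preference for IGF2, had 37.3 and 51.7 CPM in unstimulated and 29.7 and 40.2 CPM in stimulated WT libraries, against 44.0 and 37.8 CPM in unstimulated and 30.5 and 30.3 CPM in stimulated knockout libraries. The WT groups overlapped and the RGC-32 KO groups did not. The log2 fold change was -0.35 (SE 0.18, adjusted p = 0.168, edgeR) in WT and -0.43 (SE 0.18, adjusted p = 0.119) in the knockout, which did not pass. The WT value ran from -0.12 (without WT control replicate 2) to -0.60 (without WT TGF-β replicate 2), and passed in no case.

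**Figure D3:**
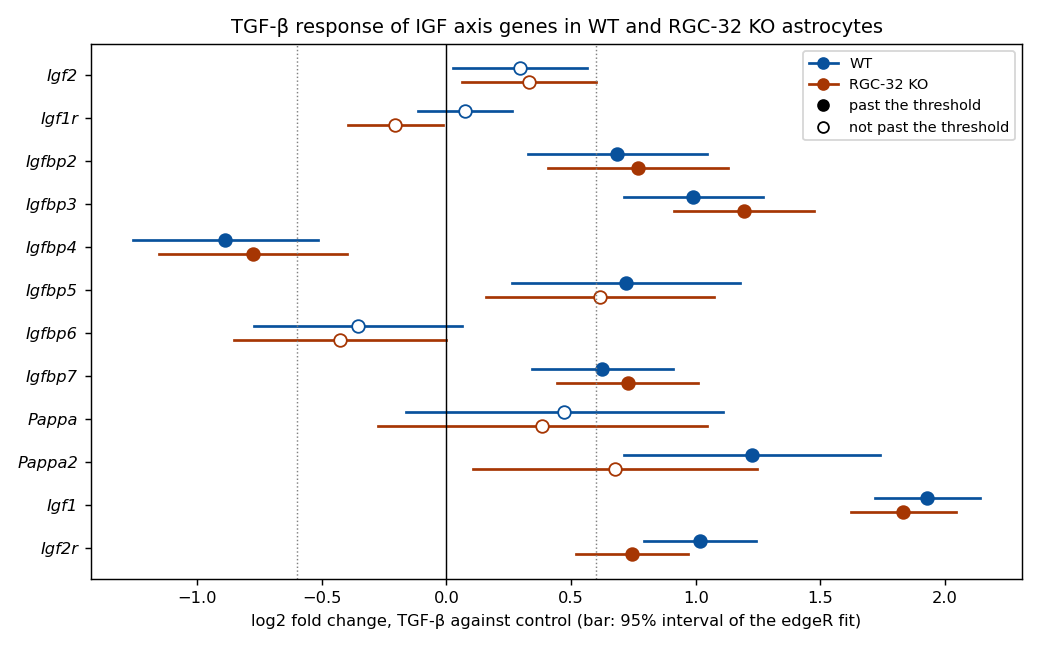
Log2 fold change of TGF-β against control for the 10 members, Igf1 and Igf2r in WT and RGC-32 KO, with bars for the 95% interval of the edgeR fit, filled points for genes past the threshold, and dotted lines at the fold limit of 0.6. Igfbp4 is the only gene shown that passed downwards, and the WT and RGC-32 KO intervals overlap for every gene.

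Of the proteases, Pappa2 rose in WT. It had 10.9 and 13.1 CPM in WT control (169 and 219 counts) and 24.0 and 32.3 CPM in WT TGF-β (434 and 505 counts). The knockout libraries had 10.0 and 6.04 CPM in control (157 and 102 counts) and 13.1 and 12.4 CPM with TGF-β (196 and 188 counts). The WT TGF-β libraries were above all 6 others. The rise in WT was 1.23 log2 (SE 0.22, adjusted p = 0.00506, edgeR), or 2.34-fold, the largest among the members. In RGC-32 KO the log2 fold change was 0.68 (SE 0.25) and did not pass (adjusted p = 0.0747). It was 1.06 without RGC-32 KO control replicate 1 and 0.35 without replicate 2. DESeq2 (adjusted p = 0.0432) and the fit on log2(FPKM + 0.1) placed the RGC-32 KO response past the threshold. The response in RGC-32 KO minus that in WT was -0.55 (SE 0.33, 95% interval -1.32 to 0.22, unadjusted p = 0.136, adjusted p = 1), so a difference between the responses was not shown.

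Pappa, which encodes the protease of IGFBP4, had 39.9 and 65.8 CPM in unstimulated and 84.4 and 62.3 CPM in stimulated WT libraries, against 31.3 and 46.4 CPM in unstimulated and 58.0 and 43.7 CPM in stimulated knockout libraries. Control and TGF-β libraries overlapped in both genotypes. The log2 fold change was 0.47 (SE 0.27, adjusted p = 0.223, edgeR) in WT and 0.38 (SE 0.28, adjusted p = 0.345) in the knockout. Leaving out the first WT control library brought the WT value to 0.16 and leaving out the second brought it to 0.86, and doing the same with the knockout controls gave 0.11 and 0.70, none of which passed. Replicates were further apart for Pappa than for most members, by 65.2% in unstimulated and 35.6% in stimulated WT libraries, against 48.1% in unstimulated and 32.5% in stimulated knockout libraries. Pappa and Igfbp5 were higher in the same library of every group, replicate 2 in both control groups and replicate 1 in both TGF-β groups, a pattern picked out after the values were seen.

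Between the genotypes, no member passed the threshold. The comparisons of RGC-32 KO with WT use the same libraries as the TGF-β responses. By edgeR 0 of 10 members passed without TGF-β, where 0.037% of genes passed, and 0 of 10 with TGF-β, where 0.0444% passed. At an unadjusted p under 0.05 there were 1 and 2 members, against 6.84% and 11.7% of all genes. DESeq2 placed 0 members past the threshold without TGF-β and 1, Pappa2, with it. The fitted log2 difference was negative for 9 of 10 members without TGF-β (median -0.22) and for 8 of 10 with it (median -0.22). Over all genes tested the median was -0.0071 without and 0.00034 with TGF-β. The members share the same libraries, and a common direction among them was not tested.

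In 5 members (Igf2, Igfbp2, Igfbp3, Igfbp4 and Pappa2) both RGC-32 KO controls were below both WT controls, an arrangement found in 17.4% of all genes. With TGF-β this held for 4 members (Igf1r, Igfbp5, Pappa and Pappa2), against 22.4% of all genes. No member lay higher in RGC-32 KO without overlap in either condition, an arrangement found in 15.5% of genes without and 23.9% with TGF-β. Pappa2 had the largest of these differences, a log2 difference of -0.59 (SE 0.25, unadjusted p = 0.0445, adjusted p = 0.722, edgeR) in controls and -1.14 (SE 0.22, unadjusted p = 0.000967, adjusted p = 0.139) with TGF-β, a level 2.20-fold lower. DESeq2 gave the latter an adjusted p of 0.00079, and the adjusted p ranged from 0.00079 to 0.775 over all alternatives. In controls the difference was -0.99 without RGC-32 KO control replicate 1 and -0.26 without replicate 2.

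In the interaction of genotype and TGF-β, edgeR and DESeq2 placed 0 members past the threshold. edgeR also placed 0% of all genes there, while 2.82% had an unadjusted p under 0.05. Igf1r was the 1 member with an unadjusted p under 0.05.

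The wider IGF pathway was read through a list of 55 genes, of which 49 were in the table and 48 were tested. Of the 38 tested genes that were not members, 7 rose and 1 fell with TGF-β in WT, and 6 rose and 1 fell in RGC-32 KO. Of all genes tested, 7.72% rose and 5.65% fell in WT, and 6.61% and 4.93% in RGC-32 KO. The median log2 fold change of these 38 genes was 0.10 and 0.05. None of the 22 tested adaptors and kinases downstream of the receptor passed in either genotype by edgeR, though 9 in WT and 7 in RGC-32 KO had an unadjusted p under 0.05 (44.3% and 41.2% of all genes), and none of the 3 IGF2 mRNA-binding genes passed.

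**Figure D4:**
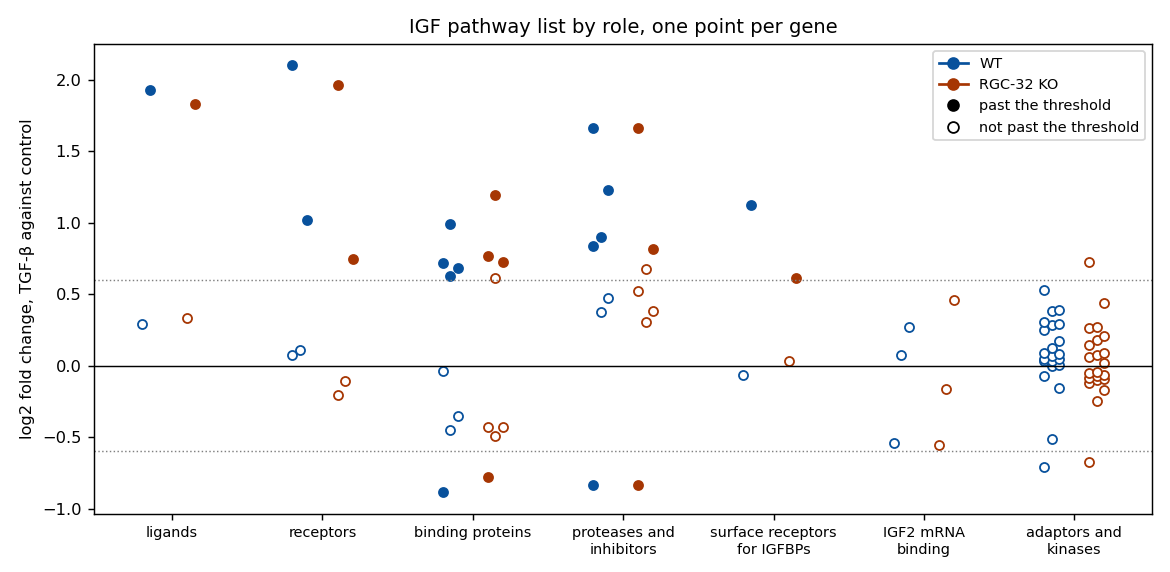
Log2 fold change of TGF-β against control for the tested genes of the IGF pathway list by role, with 1 point per gene and genotype, filled where the gene passed the threshold, and dotted lines at the fold limit of 0.6. The points past the threshold lie among ligands, receptors, binding proteins, proteases with their inhibitors, and surface receptors, and none among the adaptors and kinases.

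Igf1, the other IGF ligand, had 116 and 109.6 CPM in unstimulated and 412 and 446 CPM in stimulated WT libraries, against 93.7 and 111 CPM in unstimulated and 352 and 375 CPM in stimulated knockout libraries. It rose by 1.93 log2 (SE 0.09, adjusted p = 6.19e-05, edgeR) in WT and by 1.83 log2 (SE 0.09, adjusted p = 7.28e-05) in the knockout, or 3.81-fold and 3.56-fold. The rise of this ligand was thus larger than that of any member in each genotype.

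Igf2r, the scavenger receptor that clears IGF2, rose by 1.02 log2 in WT (adjusted p = 0.000381, edgeR) and by 0.74 log2 in RGC-32 KO (adjusted p = 0.00162). Its levels were 158 and 137 CPM in unstimulated and 277 and 321 CPM in stimulated WT libraries, against 128 and 123 CPM in unstimulated and 201 and 219 CPM in stimulated knockout libraries. Insrr, a receptor of the insulin receptor family, rose by 2.10 log2 in WT (adjusted p = 0.000702) and 1.96 log2 in RGC-32 KO (adjusted p = 0.00147). It did so from only 9 to 11 counts in each control library to 45 and 50 in WT TGF-β and 34 and 35 in stimulated knockout libraries. Insrr overlaps Pear1 on the opposite strand, Igf2r overlaps Airn and Htra1 overlaps Fgfr2, so their reads in the overlaps could not be assigned by strand.

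Adam12, a metalloprotease that cleaves IGFBP3 and IGFBP5, rose by 1.67 log2 in WT (adjusted p = 0.000122, edgeR) and 1.66 log2 in RGC-32 KO (adjusted p = 0.000137), from 35.3 to 49.0 CPM over the 4 control libraries to 111 to 163 CPM over the 4 TGF-β libraries. The serine protease gene Htra1, whose product cleaves matrix proteins and IGFBP5, rose by 0.84 log2 in WT (adjusted p = 0.00597) and 0.82 log2 in RGC-32 KO (adjusted p = 0.00834). The Htra1 rise in WT was 0.57 log2 without WT TGF-β replicate 2, and the RGC-32 KO call was lost without control replicate 2 (adjusted p = 0.0581) or TGF-β replicate 2 (adjusted p = 0.0601). Its relative Htra3 rose in WT by 0.90 log2 (adjusted p = 0.0245). In RGC-32 KO the value for Htra3 was 0.52 log2 (adjusted p = 0.158), and the difference between the responses was -0.38 (95% interval -1.19 to 0.43). The Htra3 call in WT was lost without WT control replicate 1 (adjusted p = 0.0792), WT control replicate 2 (adjusted p = 0.0914) or WT TGF-β replicate 2 (adjusted p = 0.155).

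Lrp1, a large endocytic receptor that also binds IGFBP3, had 649.7 and 691 CPM in unstimulated and 1499 and 1417 CPM in stimulated WT libraries, against 567 and 677 CPM in unstimulated and 954 and 953 CPM in stimulated knockout libraries. It rose by 1.12 log2 (SE 0.10, adjusted p = 0.000252, edgeR) in WT and by 0.62 log2 (SE 0.09, adjusted p = 0.00313) in the knockout. The RGC-32 KO value was near the fold limit and was 0.48 log2 without RGC-32 KO control replicate 1 and just under the limit, at 0.60 log2, without WT control replicate 2 or RGC-32 KO TGF-β replicate 2. The responses differed by -0.50 (95% interval -0.81 to -0.20), with an unadjusted p of 0.00551 and an adjusted p of 1.

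Stc1, which encodes stanniocalcin 1, an inhibitor of the pappalysins, was the 1 gene of the whole list past the threshold between the genotypes. It had 35 and 35 counts in unstimulated and 23 and 18 counts in stimulated WT libraries, against 121 and 162 counts in unstimulated and 75 and 71 counts in stimulated knockout libraries. In CPM these were 2.26 and 2.09, 1.27 and 1.15, 7.72 and 9.59, and 5.03 and 4.69. All 4 RGC-32 KO libraries were above all 4 WT libraries, and within each genotype TGF-β libraries were below controls. The RGC-32 KO level was 3.98-fold that of WT both without TGF-β (log2 difference 1.99, SE 0.18, adjusted p = 0.0164, edgeR) and with it (1.99, SE 0.21, adjusted p = 0.0451). TGF-β lowered Stc1 in both genotypes, the log2 values being -0.83 in WT (SE 0.23, adjusted p = 0.0282) and -0.83 in the knockout (SE 0.16, adjusted p = 0.00863), with an unadjusted p of 0.992 for the difference between the responses.

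The Stc1 counts are small, and its calls were often lost when 1 library was left out, while each difference kept its sign. The genotype call without TGF-β was lost when any of the 8 libraries was left out, with log2 differences of 1.83 to 2.14 and adjusted p-values up to 0.207, and the call with TGF-β was lost when any 1 WT library or either RGC-32 KO TGF-β library was left out, with log2 differences of 1.94 to 2.06 and adjusted p-values up to 0.494. The WT response was lost when any 1 WT library was left out (adjusted p = 0.0725 to 0.123), and the RGC-32 KO response without control replicate 2 (adjusted p = 0.0546) or TGF-β replicate 2 (adjusted p = 0.0623).

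**Figure D5:**
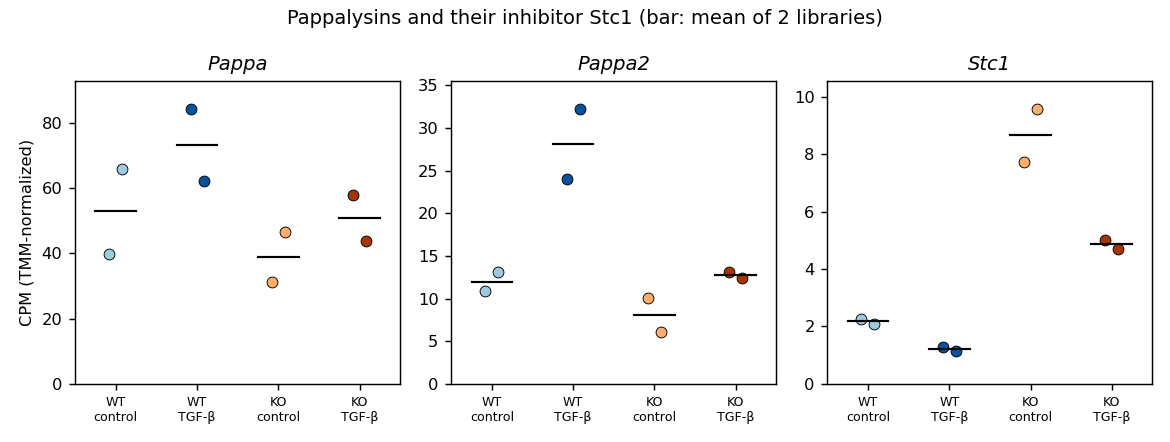
TMM-normalized CPM of the pappalysin genes Pappa and Pappa2 and of the inhibitor gene Stc1, with 1 point per library and a bar at the mean of the 2 libraries of each group, on linear axes that start at 0. The 4 RGC-32 KO libraries of Stc1 lie above the 4 WT libraries, and the 2 WT TGF-β libraries of Pappa2 lie above the other 6.

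The sum of 10 microglia and macrophage markers was 1170 to 1453 CPM in unstimulated and 1026 to 1384 CPM in stimulated WT cultures, and 1267 to 1382 CPM and 1071 to 1199 CPM in those of the knockout, and 0 of these markers passed in any comparison by edgeR, with 1 in WT and 2 in RGC-32 KO at an unadjusted p under 0.05 for TGF-β against control. The 3 mural markers present had 67.3 to 68.8 CPM in WT control and 137 to 139 in WT TGF-β, and 57.0 to 66.5 and 113 to 116 in RGC-32 KO. This sum was carried by Notch3 (60.5 and 131 CPM on average in WT control and WT TGF-β), while Rgs5 did not pass in either genotype (0.17 log2 in WT) and Vtn was at -0.64 log2 in WT, short of the threshold, and fell by 1.39 log2 in the knockout. The 7 oligodendrocyte lineage markers present had 228 to 265 CPM in WT control and 460 to 544 in WT TGF-β, and 220 to 261 and 373 to 490 in RGC-32 KO. Within them Cspg4, which pericytes also express, rose (3.13 log2 in WT) and Pdgfra fell (-0.98 log2 in WT). Markers of the choroid plexus, where Igf2 and Igfbp2 are also made, summed to 46.3 to 52.0 CPM in WT control and 35.6 to 36.1 in WT TGF-β, and to 49.8 to 53.4 and 38.2 to 41.2 in RGC-32 KO, with Kl and Clic6 not in the count table. Of the 4 choroid plexus markers present, 0 rose and 1 fell in each genotype. The fall was in Kcnj13 (-2.91 log2 in WT, -3.20 in RGC-32 KO), from 4.97 and 5.85 CPM on average in controls. The 5 ependymal markers present summed to 380 to 436 CPM in WT control and 250 to 279 in WT TGF-β, and to 400 to 452 and 292 to 307 in RGC-32 KO, and 4 of them fell in WT and 1 in RGC-32 KO. The 5 endothelial markers present summed to 99.3 to 124 CPM in WT control and 71.6 to 73.7 in WT TGF-β, and to 101 to 127 and 66.9 to 80 in RGC-32 KO, with 1 that rose and 1 that fell in WT and 1 that rose and 2 that fell in RGC-32 KO. The 3 neuronal markers present ran from 95.3 to 137 CPM over the 8 libraries, and 1 of them rose in each genotype. Their part in the results for the members was not tested.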

How the data were processed

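The authors aligned unstranded reads with STAR (build mm10, per the submitters' processing notes) and deposited raw read counts for each gene symbol, all of them whole numbers. The counting program and annotation are not given in the sources used here. They also deposited FPKM values for 18644 genes, taken to be from Cufflinks, which the notes name. These were used for levels between genes and as an alternative. The authors' tables of DESeq results (fold changes and p-values) were not used.

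Samples were grouped by their titles. Counts were analysed with edgeR 4.0.16 in R 4.3.3: filterByExpr kept 13509 genes, libraries were scaled by TMM, and all 8 libraries entered a quasi-likelihood model with 4 group means, without a block. P-values are two-sided and Benjamini-Hochberg adjusted over the genes tested. SE and 95% intervals were derived from the test statistic and are not given for differences near 0. A prior count of 2 entered log2 CPM. Simulated data were used to test the steps. Replicates differed by more than counting noise (chi-square per degree of freedom 6.26 to 10.4).

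Named are all members, Rgcc, genes of the pathway list past the threshold with TGF-β in either genotype, markers where a list is reported, and the 3 genes most correlated with the member of the largest rise and with that of the largest fall. The members and lists were chosen with earlier results of these data known.

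Alternatives were DESeq2 1.42.0, limma-voom (limma 3.58.1), RLE and upper quartile scaling, no filter, at least 10 counts in every library, the replicate number as a block, log2(FPKM + 1) and log2(FPKM + 0.1) in limma for genes with a mean FPKM of at least 0.1, and leaving out each library.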

Additional observations from a re-analysis of the deposited data

Results flagged for a closer look

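Of the members and the 8 pathway genes named with them, 2 had TGF-β responses that differed between RGC-32 KO and WT at an unadjusted p under 0.05 in the edgeR interaction test. For Igf1r the response in RGC-32 KO minus that in WT was -0.28 log2 (unadjusted p = 0.0426), and for Lrp1 it was -0.50 log2 (unadjusted p = 0.00551). Both had an adjusted p of 1, and 381 of the 13509 genes tested, or 2.82%, had an unadjusted p under 0.05 in the same test. No group held enough libraries to look for a library far from the others of its group.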

How the results depend on the processing

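With 6 members past the threshold in WT, the count was 3 under FPKM with a pseudocount of 1, 3 with a pseudocount of 0.1, and 3 to 6 when 1 library was left out, the lowest without WT TGF-β replicate 2. With 4 in RGC-32 KO, it was 5 with DESeq2, with limma-voom and with no filter, 3 under FPKM with a pseudocount of 1, and 2 to 4 when 1 library was left out, the lowest without RGC-32 KO TGF-β replicate 2. Upper quartile scaling gave 4 in WT, without Igfbp2 and Igfbp7. For RGC-32 KO against WT with TGF-β the count of 0 became 1, Pappa2, with DESeq2. The log2 fold change of Igf1r in WT turned to -0.01 under upper quartile scaling and ran from -0.01 (without WT TGF-β replicate 2) to 0.15 when 1 library was left out. Igfbp3 in both genotypes and Igfbp4 and Pappa2 in WT passed under all 18 alternatives. Stc1 fell short with DESeq2 in WT (adjusted p = 0.128) and in RGC-32 KO (adjusted p = 0.053), and the FPKM pseudocount of 1 gave it genotype differences of 1.06 and 0.76 log2 and TGF-β responses under the fold limit (-0.23 log2 for WT cultures, -0.54 for the knockout). Limma-voom lost its WT response (adjusted p = 0.0548) and its genotype difference with TGF-β (adjusted p = 0.0812). The FPKM pseudocount of 1 gave Pappa2 0.66 log2 in WT and left Insrr short of the fold limit (0.26 log2 in WT, 0.24 in RGC-32 KO). Both FPKM settings left Igfbp2, Igfbp5 and Igfbp7 short of it in WT (0.56, 0.57 and 0.45 log2). In RGC-32 KO, Lrp1 fell short under upper quartile scaling (0.53 log2) and both FPKM settings (0.42 and 0.43), and so did Igfbp7 (0.53 in both) and Igf2r (0.55 and 0.59) under the FPKM settings. With at least 10 counts in every library, Lrp1 in RGC-32 KO also stood under the fold limit (0.60 after rounding). Htra3 in WT was lost under both FPKM settings (0.48 and 0.65 log2, adjusted p = 0.0552 and 0.061). The causes were not tested.

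The labels tie the replicate numbers to no shared litter or batch. Deviations of same-numbered control and TGF-β libraries correlated at -0.343 in WT and -0.348 in RGC-32 KO, and those of same-numbered WT and RGC-32 KO libraries at 0.491 in controls and 0.253 with TGF-β, so the numbers went together across genotypes but not across treatment, and were not taken as pairs. With the replicate block the members past the threshold numbered 6 in WT, 4 in RGC-32 KO and 0 in the other comparisons, and the Stc1 differences between genotypes no longer passed (adjusted p = 0.0849 and 0.0818), nor did its WT response (adjusted p = 0.0539). With the crossed pairing, chosen after seeing the data, the members past the threshold numbered 6 in WT, 6 in RGC-32 KO, 1 for RGC-32 KO against WT with TGF-β (Pappa2) and 0 in the other comparisons.

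Over all genes, upper quartile scaling turned the WT split from 1043 higher and 763 lower to 857 and 1055, and the RGC-32 KO split from 893 and 666 to 747 and 895. FPKM with a pseudocount of 0.1 gave 752 and 1250 in WT and 691 and 1231 in RGC-32 KO, with a median shift of -0.134 and -0.132 log2, and a pseudocount of 1 gave 519 and 586 in WT and 462 and 578 in RGC-32 KO. DESeq2 placed 6 genes higher and 7 lower between genotypes without TGF-β, against 4 and 1, and 12 and 22 with TGF-β, against 3 and 3. With 2 libraries a group, the 95% interval of the Pappa2 interaction ran from -1.32 to 0.22 log2.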

Other observations

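Over the 8 libraries, the genes whose log2 CPM was most like that of Pappa2, the member with the largest rise in WT, were Aoc2 (Pearson's r = 0.995), Epg5 (r = 0.987) and Cdca4 (r = 0.984). Those most like Igfbp4, the member with the largest fall, were Emb (r = 0.985), Serpinb6b (r = 0.985) and Cxcl12 (r = 0.984), a chemokine gene. Aoc2 had 2.39 and 2.69 CPM in unstimulated and 3.65 and 4.09 CPM in stimulated WT libraries, against 2.49 and 1.89 CPM in unstimulated and 2.68 and 2.58 CPM in stimulated knockout libraries. Cxcl12 had 71.9 and 72.9 CPM in unstimulated and 48.4 and 48.7 CPM in stimulated WT libraries, against 66.4 and 56.9 CPM in unstimulated and 48.6 and 38.4 CPM in stimulated knockout libraries. These correlations are a description over libraries that share groups and depth, and each was picked as the highest among 13509 genes tested.

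The ratio of Pappa to Pappa2 in FPKM was 2.99 and 3.98 in unstimulated and 2.76 and 1.60 in stimulated WT libraries, against 2.73 and 6.01 in unstimulated and 3.30 and 2.74 in stimulated knockout libraries. The 2 RGC-32 KO control libraries, the lowest and highest of the control groups, enclosed those of WT control.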
